A study of Mus musculus with 8 samples.

Results

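Cells of the embryonic mouse cortex that carried RNA of Nxph4, which encodes the secreted protein neurexophilin 4, were picked out by 6 genes. A cell belonged to the set when it had at least 1 unique molecular identifier (UMI, 1 counted RNA molecule) of Nxph4, at least 1 of the transcription factor genes Tbr1 or Nr4a2, and 0 of Gad1, Gad2 and Eomes. Gad1 and Gad2 make the inhibitory transmitter GABA, and Eomes marks intermediate progenitors. The rule was written for subplate neurons and took 378 of 15547 cells. Of these Nxph4 cells, 153 came from the ShhN library and 225 from the WT library. Layer 6 cells, defined by at least 2 UMIs of Hs3st4 and none of Nxph4, served for comparison and numbered 197 in the ShhN library and 186 in the WT library.

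The study measured single-cell RNA in cortex of CD1 mice at embryonic day 16.5. The ShhN group had received a plasmid for ShhN, the signalling fragment of sonic hedgehog, by in utero electroporation at E13.5, and the WT group were wild type littermates. Electroporation loads only cells that line the ventricle on the day of the procedure, so most cells of an electroporated cortex carry no plasmid. The labels name neither a promoter nor a control plasmid for the littermates. Each group had 4 samples, deposited as 1 droplet matrix in which cells could not be traced to a sample. Each group was therefore 1 library, no difference between the groups has a replicate check, and no test was possible.

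Subplate neurons are among the first neurons of the cortex, are born before the day of this electroporation, and lie under the cortical plate, where they guide thalamic axons. Nxph4 and Nr4a2 mark them, and Tbr1 drives early deep-layer fates in subplate, layer 6 and Cajal-Retzius cells. Cajal-Retzius cells are another early-born population, sit at the surface of the cortex and secrete reelin (Reln). Neurexophilins bind neurexins, adhesion proteins of the presynaptic side. Nxph4 lies on chromosome 10 at 127525473 to 127534559, Tbr1 on chromosome 2 at 61802930 to 61814114 and Nr4a2 on chromosome 2 at 57106830 to 57124003 (build GRCm38, GENCODE M21).

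Cells were barcodes with at least 2300 UMIs, 800 genes and at most 10% mitochondrial UMIs. The ShhN library held 8314 cells with a median of 6758.5 UMIs, and the WT library 7233 cells with a median of 6385 UMIs. Nxph4 cells had medians of 7011 UMIs in the ShhN library and 7050 in the WT library, against 6929 and 7460 in layer 6 cells. A doublet caller marked 4 ShhN and 20 WT Nxph4 cells, and 23 layer 6 cells in each library, all of which were kept. Over all cells it marked 2.87% in the ShhN and 3.88% in the WT library. In addition, 79 barcode sequences were cells in both libraries. Levels are CPM: the UMIs of a gene summed over the cells of a group, per 1000000 UMIs of those cells. Intervals are 95% and cover counting error only, not differences between cells, embryos or libraries.

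Nxph4 itself was thinly sampled. Among the Nxph4 cells, 129 of 153 in the ShhN library and 176 of 225 in the WT library had exactly 1 Nxph4 UMI, and the highest count in a cell was 4 in the ShhN library and 6 in the WT library. Tbr1 alone met the rule in 103 ShhN and 146 WT cells, Nr4a2 alone in 20 and 32, and both genes in 30 and 47. Just outside the rule lay 100 ShhN and 164 WT cells with Nxph4 but neither Tbr1 nor Nr4a2, and 69 and 102 that were left out for Eomes alone. These counts describe the choice and are not results.

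The background of Nxph4 was not 0 and was higher in the WT than in the ShhN library. Over all cells, 4.73% of ShhN and 8.39% of WT cells had an Nxph4 UMI. How many of the Nxph4 cells with 1 UMI came from background was not tested. Droplets with 1 to 50 UMIs, which hold free RNA rather than cells, had 6.71 CPM of Nxph4 in the ShhN library and 15.2 CPM in the WT library. Cells with at least 2 Gad1 or Gad2 UMIs, GABAergic cells that should lack the gene, had an Nxph4 UMI in 1.21% of ShhN and 3.05% of WT cells, at medians of 5681 and 3895 UMIs. Cells with at least 2 UMIs of 6 vascular genes and under 3 Cajal-Retzius genes had an Nxph4 UMI in 2.5% of 40 ShhN and 7.14% of 56 WT cells, at medians of 7786.5 and 7107 UMIs. Cells with at least 2 Eomes UMIs had it in 9.49% of ShhN and 20.7% of WT cells. Cells with at least 2 Hs3st4 UMIs had Nxph4 in 22.1% of ShhN and 20.5% of WT cells. Cells with 3 or more Cajal-Retzius genes had Nxph4 in 60.0% of ShhN and 61.8% of WT cells, at medians of 10333 and 9842 UMIs, and in 34.4% and 41.0% when thinned to 4500 UMIs.

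The classic subplate markers were at or near 0 and could not check the label. Of 17 subplate marker genes in the files, 6 were at 0 UMIs over all ShhN Nxph4 cells and 4 over all WT Nxph4 cells, and 5 and 8 reached 10 UMIs. Ctgf, a secreted growth factor used as a classic subplate marker, had 0 UMIs in the ShhN Nxph4 cells and 2 in the WT Nxph4 cells. Cplx3, a complexin of the vesicle release machinery, had 0 and 1. Moxd1, Trh and Htr1d were at 0 in both. Only 14 ShhN and 8 WT UMIs of Ctgf were counted over all cells, so at this depth the classic markers say little about any cell here. The 17 genes together were at 196 CPM in ShhN and 232 CPM in WT Nxph4 cells, against 134 and 138 CPM in layer 6 cells and 119 and 130 CPM over all cells. Since some cells of the set carried genes of Cajal-Retzius cells, as described next, they are called Nxph4 cells below.

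The Nxph4 cells fell into 3 subsets, which were drawn after their values were seen. Cells with at least 3 of 8 Cajal-Retzius genes numbered 16 in the ShhN library (10.5%) and 41 in the WT library (18.2%). Only 4 ShhN and 11 WT Nxph4 cells had exactly 2 of these genes, and 1 and 0 had exactly 3, so few cells lay near the limit. Cells with at least 2 Hs3st4 UMIs and under 3 Cajal-Retzius genes, the Hs3st4 subset, numbered 41 in each library, 26.8% of the ShhN and 18.2% of the WT Nxph4 cells. The remaining 96 ShhN and 143 WT cells made up 62.7% and 63.6%.

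**Figure D1:**
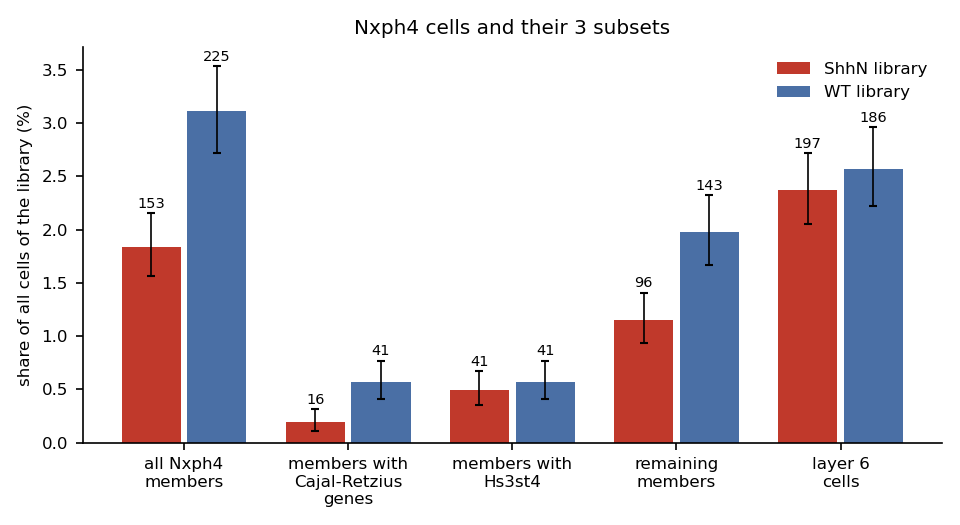
Shares of all cells of a library (y axis, %) for the Nxph4 cells, their 3 subsets and layer 6 cells, with the ShhN library in red left of the WT library in blue; bars are shares, lines exact 95% binomial intervals and numbers cell counts. The Nxph4 cells made up 1.84% of the ShhN and 3.11% of the WT library, while the Hs3st4 subset made up 0.493% and 0.567%.

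The subset with Cajal-Retzius genes carried the Reln of the whole set. Reln, the secreted guidance protein of Cajal-Retzius cells, reached 3027 CPM in ShhN and 3046 CPM in WT cells of this subset and was found in all of them. It was at 3.36 and 5.84 CPM in the Hs3st4 subset and at 1.37 and 11.0 CPM in the remaining cells. Trp73, the p73 transcription factor gene, was at 183 CPM in ShhN and 221 CPM in WT cells of the first subset and had 0 UMIs in the other 2 subsets of both libraries. Since Cajal-Retzius genes drew this subset, these levels are a description. Nr4a2 was nearly missing there, with 0 UMIs in 16 ShhN cells, which allows a share of cells with a UMI of up to 18.8% (3 counts of 16 cells), and 5 UMIs in WT cells (11.5 CPM).

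The Hs3st4 subset had the highest CPM of Nr4a2 among the 3 subsets. This orphan nuclear receptor gene was found in 43.9% of ShhN and 51.2% of WT cells of the Hs3st4 subset, at 144 CPM [104, 194] and 175 CPM [134, 225]. In the remaining cells it was found in 33.3% and 37.8%, at 71.3 and 101 CPM, and in layer 6 cells in 23.9% and 31.2%, at 46.2 and 81.5 CPM. Nr4a2 was part of the rule for Nxph4 cells, and these levels carry that choice. Genes of layer 6 in the Hs3st4 subset stood on both sides of layer 6 cells: of 9 with at least 5 UMIs, 3 were above and 2 below in both libraries. Tle4, a corepressor gene, was at 329 CPM [267, 401] in ShhN and 312 CPM [256, 377] in WT cells of the subset, against 200 [178, 223] and 166 [146, 187] CPM in layer 6 cells. Sox5, a transcription factor gene of deep layers, was at 681 [591, 782] and 581 CPM [503, 668], against 656 [617, 697] and 729 [686, 773] CPM. Foxp2, a forkhead transcription factor of deep layers, was at 134 CPM in ShhN and 134 CPM in WT cells of the subset, against 139 and 140 CPM in layer 6 cells, with log2 ratios of -0.05 [-0.58, 0.44] and -0.06 [-0.55, 0.41].

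**Figure D2:**
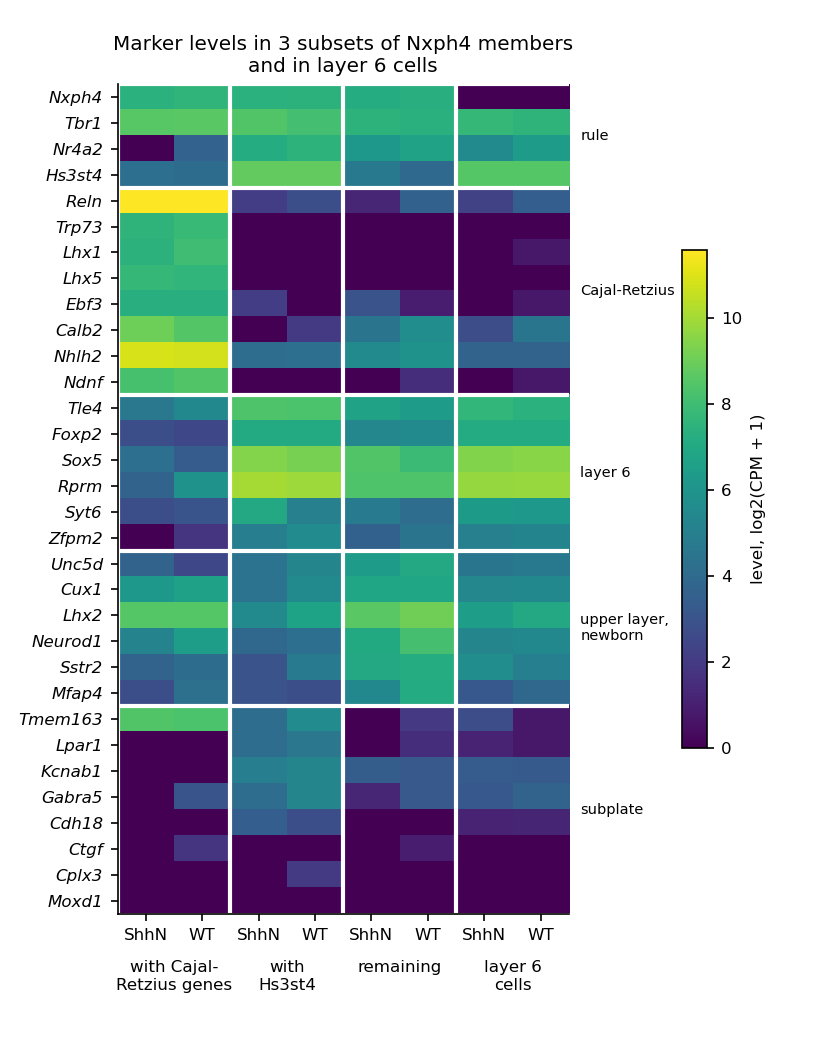
Levels of marker genes (rows) as log2(CPM + 1) in the 3 subsets of Nxph4 cells and in layer 6 cells, with ShhN left of WT in each pair of columns; the groups of genes at the right are the rule genes and the marker lists. Cajal-Retzius genes such as Reln (3027 CPM in ShhN and 3046 CPM in WT cells) stood in the first pair of columns, and Nr4a2 was highest in the second.

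The whole set of Nxph4 cells was then set against layer 6 cells. A gene was called when it had at least 50 UMIs over both sides, a log2 ratio beyond 1 or -1, and the near end of its interval beyond 0.5 or -0.5, in both libraries. In the ShhN library alone 86 of 6075 genes were higher (1.42%) and 34 lower (0.56%) in Nxph4 cells, and in the WT library alone 185 of 6891 were higher (2.68%) and 88 lower (1.28%). Of 6009 genes with enough UMIs in both, 58 were higher (0.965%) and 18 lower (0.3%) in Nxph4 cells. With scaling by trimmed means (TMM), which shifts all log2 ratios by -0.12 in the ShhN and -0.10 in the WT library, the split was 50 higher and 36 lower. The counts include the rule genes Nxph4 and Hs3st4. The Nxph4 and the layer 6 cells were chosen by genes of the same cells, so this contrast is a description.

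In both libraries 148 of 4481 genes were higher (3.3%) and 166 lower (3.7%) in the subset with Cajal-Retzius genes than in layer 6 cells. Of the 8 Cajal-Retzius genes, 4 had enough UMIs in both libraries for the whole set, and all 4 (Reln, Calb2, Nhlh2 and Ndnf) were higher. The 16 ShhN and 41 WT cells of that subset carried most of their UMIs. Reln had 430 CPM in Nxph4 cells against 3.74 CPM in layer 6 cells of the ShhN library, and 716 against 9.94 CPM in the WT library. The first subset held 99.6% of the ShhN and 99.0% of the WT Reln UMIs of the Nxph4 cells. Nhlh2, a helix-loop-helix transcription factor gene, had 298 against 11.9 CPM in the ShhN library and 450 against 11.9 CPM in the WT library, with 89.6% and 91.5% of its UMIs in that subset. Cacna2d2, a calcium channel subunit gene, had 72.7 against 0.624 CPM and 110 against 0.662 CPM, with 98.9% and 98.0% there. The same held for Snhg11, a long noncoding RNA, for Ndnf, a secreted factor, and for Lhx1os, the opposite-strand transcript of Lhx1, whose reads cannot be told from those of Lhx1 unless counting used strand. For these 3 the first subset held between 98.7% and 100% of the UMIs in both libraries.

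Transcription factor genes were also among the highest. Nr2f2 (COUP-TFII, a nuclear receptor) was higher by 4.28 [3.32, 5.44] in the ShhN and 3.40 [2.86, 3.99] in the WT library on the log2 scale, Emx2 (a homeodomain factor of the early cortex) by 3.99 [2.79, 5.48] and 3.69 [2.99, 4.50], and Zic1 (a zinc finger factor) by 4.08 [2.78, 5.75] and 5.45 [3.88, 7.74]. The first subset held 95.4% of the ShhN and 90.8% of the WT Nr2f2 UMIs, 98.4% and 94.4% of those of Zic1, and 85.9% and 72.8% of those of Emx2. Cxcl12, Tmem163, Rcan2, Rbms1, Zcchc12 and Calb2 completed the 15 highest, with between 73.7% and 92.2% of their UMIs in the first subset. Tmem163, a zinc transporter gene on the subplate marker list, was at 348 CPM in ShhN and 316 CPM in WT cells of the first subset, against 16.8 and 46.7 CPM in the Hs3st4 subset. Slc17a6, a vesicular glutamate transporter gene, was at 43.4 CPM in Nxph4 cells against 9.36 CPM in layer 6 cells of the ShhN library and at 52.5 against 2.65 CPM in the WT library. Pax6, a transcription factor gene of radial glia, had 44.3 against 8.11 CPM and 41.3 against 5.96 CPM. The first subset held 46.2% of the ShhN and 60.2% of the WT Slc17a6 UMIs, and 52.8% and 57.1% of those of Pax6. Without the first subset, 19 genes were higher and 8 lower than in layer 6 cells in both libraries, and the log2 ratio of Reln was -0.94 in the ShhN and -0.02 in the WT library.

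The lower genes included the layer 6 marker Foxp2. It was at 58.5 CPM in Nxph4 cells against 139 CPM in layer 6 cells of the ShhN library, and at 51.4 against 140 CPM in the WT library. Ephb1, an ephrin receptor gene of axon guidance, had 76.9 against 179 CPM and 73.4 against 178 CPM. Rorb, a nuclear receptor gene of layer 4 identity, had log2 ratios of -1.51 [-1.87, -1.16] in the ShhN library and -2.25 [-2.67, -1.85] in the WT library. Nts, the neuropeptide neurotensin, had log2 ratios of -3.36 and -2.72, but its layer 6 UMIs came from 7 cells in each library. Egr1, an activity-induced transcription factor, had -1.19 [-1.83, -0.60] and -1.04 [-1.44, -0.65]. Kif26a, B3gat1, Lrfn5, Ldb2, Arhgap29, Spock1, Arhgap20, Nrgn, Tspan18 and Igfbp3 completed the 15 lowest. Layer 6 cells were chosen for Hs3st4, which fixes part of this direction: of the 11 layer 6 genes on the list, 9 had enough UMIs and only Foxp2 passed in both libraries.

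**Figure D3:**
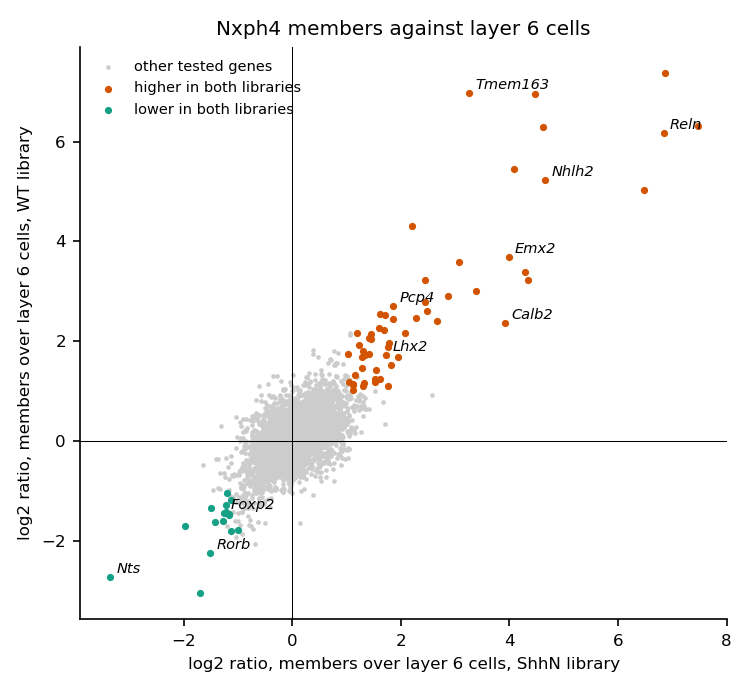
Log2 ratio of Nxph4 cells over layer 6 cells in the ShhN library (x axis) and the WT library (y axis) for each gene with at least 50 UMIs in both, without Nxph4 and Hs3st4. Higher and lower genes by the size rule are coloured, with Reln at 6.84 and 6.17 among the highest.

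A narrower comparison set the Hs3st4 subset of Nxph4 cells against layer 6 cells, since both needed at least 2 Hs3st4 UMIs. Only the subset also needed Tbr1 or Nr4a2, 0 of Gad1, Gad2 and Eomes, and under 3 Cajal-Retzius genes. The sides were not matched on these genes, and the values below carry that choice. Hs3st4, a heparan sulfate sulfotransferase gene, was at 443 CPM [371, 525] in ShhN and 447 CPM [379, 523] in WT cells of the subset, against 362 [333, 393] and 366 [336, 398] CPM in layer 6 cells. Of 4540 genes, 10 were higher (0.22%) and 1 lower (0.022%) in both libraries. Nxph4 and Nr4a2 are rule genes, which leaves 8 others.

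Atp1b1, the beta subunit of the sodium pump, had 205 CPM in the Hs3st4 subset against 78.0 CPM in layer 6 cells of the ShhN library, and 274 against 70.9 CPM in the WT library (log2 ratios 1.39 [0.93, 1.84] and 1.95 [1.54, 2.37]). Fxyd7, a regulator of the same pump, had 104 against 41.8 CPM and 105 against 26.5 CPM. Sncb (beta-synuclein, a presynaptic protein) had 272 against 123 CPM and 365 against 140 CPM, and was found in 68.3% and 80.5% of the subset's cells against 54.3% and 57.0% of layer 6 cells. Caln1, a calcium-binding protein gene, had 269 against 85.5 CPM and 184 against 78.2 CPM. Each of these 4 genes was higher in both libraries by at least 1.14 on the log2 scale.

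Syt7, a calcium sensor of vesicle fusion, was higher by 1.19 [0.54, 1.82] in the ShhN and 1.25 [0.66, 1.83] in the WT library, and Caly (calcyon, a protein of vesicle trafficking) by 1.12 [0.68, 1.54] and 1.01 [0.60, 1.41]. Cck, the neuropeptide cholecystokinin, had 117 against 43.7 CPM in the ShhN library and 117 against 33.8 CPM in the WT library, but its UMIs in the subset came from 7 ShhN and 14 WT cells. Tmem158 was higher by 1.46 [0.70, 2.18] and 1.86 [1.33, 2.39]. Bhlhe22, a helix-loop-helix transcription factor gene, was the lower gene, at 33.6 against 179 CPM in the ShhN library and 67.1 against 252 CPM in the WT library (log2 ratios -2.41 [-3.49, -1.51] and -1.91 [-2.59, -1.30]).

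**Figure D4:**
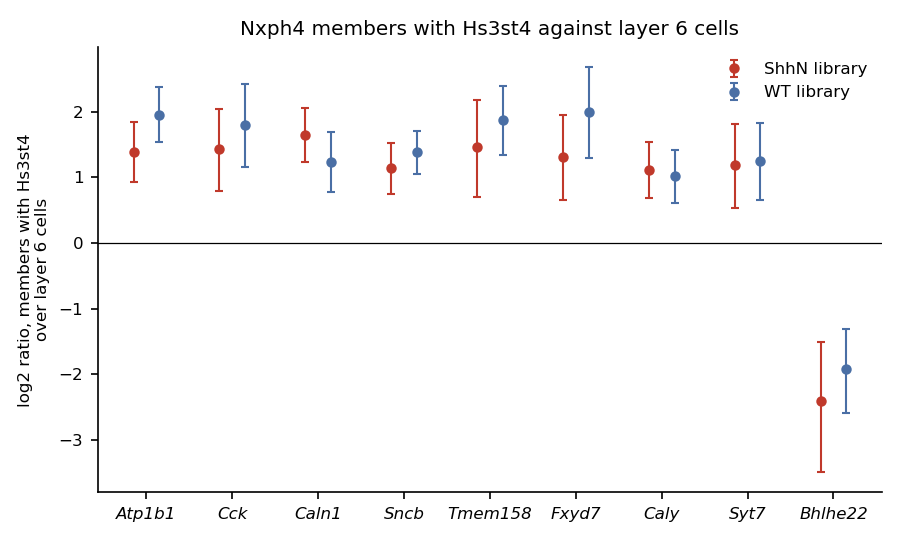
Log2 ratio (y axis) of the Hs3st4 subset of Nxph4 cells over layer 6 cells for the 9 genes past the size rule in both libraries other than the rule genes (x axis); points are ratios, lines exact 95% intervals of counting error, ShhN in red left of WT in blue. In each library 8 genes lie above 1 and Bhlhe22 lies at or below -1.91.

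Subplate markers were sparse in the Hs3st4 subset but stood on the same side. Of the 17 marker genes, 8 had at least 5 UMIs over subset and layer 6 cells in each library, and all 8 had a higher CPM in the subset in both libraries, where 31.7% of 10029 genes with that many UMIs did. They were Lpar1 and Gabra5 (receptors for lysophosphatidic acid and GABA), Kcnab1 (a potassium channel subunit), Cdh10, Serpini1, St18, Pls3 and Tmem163. Lpar1, which marks part of the subplate, had 5 UMIs in ShhN and 8 in WT cells of the subset, against 2 and 1 in layer 6 cells. Its subset UMIs alone met the minimum of 5, so for sparse genes the minimum is not free of the direction. Kcnab1 was at 30.2 CPM in ShhN and 38.0 CPM in WT cells of the subset, against 9.36 and 8.61 CPM in layer 6 cells. The summed level of all 17 genes was 275 CPM in ShhN and 345 CPM in WT cells of the subset, against 134 and 138 CPM in layer 6 cells. None of the 8 passed the size rule. The sides were split by Nxph4, itself a subplate marker, and the subset was drawn after its values were seen. This contrast is therefore a description and no independent check of identity. In the subset with Cajal-Retzius genes the sum was higher still, at 395 CPM in the ShhN and 371 CPM in the WT library, where Tmem163 alone gave 348 and 316 CPM. In the remaining Nxph4 cells it was 117 CPM in the ShhN and 140 CPM in the WT library.

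Lists of synapse and channel genes held no call in this comparison. Of 18 measured vesicle and fusion genes, 8 had a higher CPM in the Hs3st4 subset than in layer 6 cells in both libraries, and 0 had a lower one, where 31.7% of all 10029 genes were above and 23.7% below. Of 16 potassium channel genes 7 were above and 3 below in both libraries, and of 13 glutamate receptor genes 6 were above and 1 below. Of 16 voltage-gated sodium and calcium channel genes 5 were above and 3 below. Nxph3, which encodes the neurexophilin related to the set's own gene, was at 131 CPM in ShhN and 143 CPM in WT cells of the subset, 201 and 138 CPM in the subset with Cajal-Retzius genes, 30.2 and 24.8 CPM in the remaining cells, and 64.3 and 88.1 CPM in layer 6 cells. Of 10 upper layer genes, 7 had a lower CPM in the Hs3st4 subset than in layer 6 cells in both libraries.

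Genes of the upper layers were higher in the remaining cells, the largest subset. Of 5327 genes, 47 were higher (0.882%, Nxph4 among them) and 76 lower (1.43%) than in layer 6 cells in both libraries. Lhx2, a LIM homeodomain factor of progenitors and upper layers, was at 385 CPM in ShhN and 536 CPM in WT remaining cells, against 89.9 and 127 CPM in layer 6 cells. Neurod1, a helix-loop-helix factor of newborn neurons, was at 129 and 284 CPM, against 38.1 and 41.7 CPM. Nrp1, a semaphorin receptor gene, was at 441 and 494 CPM, against 150 and 165 CPM. Unc5d, a netrin receptor gene of migrating upper layer neurons, was at 79.5 and 126 CPM, against 21.8 and 24.5 CPM. Of the 10 upper layer genes, 4 passed as higher (Cux1, Pou3f2, Unc5d and Lhx2) and Rorb passed as lower. Of 9 measured layer 6 genes, Foxp2, Syt6, Rprm and Sla passed as lower, a direction that the choice of layer 6 cells by Hs3st4 partly fixes.

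Nxph4 cells made up a smaller share of the ShhN library, at 1.84% [1.56, 2.15] of ShhN cells against 3.11% [2.72, 3.54] of WT cells, a ratio of 0.592 and a log2 ratio of -0.76 [-1.06, -0.45]. Layer 6 cells made up 2.37% [2.05, 2.72] and 2.57% [2.22, 2.96]. Cells with an Nxph4 UMI of any kind made up 4.73% and 8.39%, and 3.32% of 7256 and 6.15% of 5548 cells after thinning to 4500 UMIs, which left out 1058 ShhN and 1685 WT cells below that depth. Over all cells Nxph4 was at 7.61 CPM in the ShhN and 15.4 CPM in the WT library, and the free RNA values above differ in the same direction. The part of free RNA in the difference was not tested. Fewer cells of a kind and a smaller share of such cells captured by dissection cannot be told apart.

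The difference was uneven over the subsets. The subset with Cajal-Retzius genes made up 0.192% [0.110, 0.312] of ShhN cells and 0.567% [0.407, 0.768] of WT cells, a ratio of 0.340. Over all cells, those with 3 or more Cajal-Retzius genes made up 0.421% and 1.23%, a ratio of 0.342. The Hs3st4 subset made up 0.493% [0.354, 0.668] and 0.567% [0.407, 0.768], a ratio of 0.870 with intervals that overlap widely. The remaining cells made up 1.15% [0.936, 1.41] and 1.98% [1.67, 2.32], a ratio of 0.584. With Nxph4 of at least 2 UMIs the log2 ratio of shares was -1.23, and with the Hs3st4 subset alone -0.20.

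Within the Nxph4 cells, the rule genes stood close between the libraries. Nxph4 was at 153 CPM in ShhN and 164 CPM in WT cells (log2 ratio -0.10 [-0.37, 0.17]), Tbr1 at 247 and 238 CPM (0.05 [-0.16, 0.27]) and Nr4a2 at 79.4 and 93.8 CPM (-0.24 [-0.62, 0.13]), levels that the rule bounds from below. Of 6644 genes, 15 were higher (0.226%) and 29 lower (0.436%) in ShhN than in WT Nxph4 cells by the size rule. In layer 6 cells 8 of 6321 were higher (0.127%) and 6 lower (0.0949%). With TMM scaling the split in Nxph4 cells was 17 higher and 20 lower. Genes of red blood cells summed to 533 CPM in ShhN and 1094 CPM in WT Nxph4 cells, against 12787 and 22968 CPM in free RNA.

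Shh led the higher genes as the introduced transcript. It had 126 UMIs in 13 of 153 ShhN Nxph4 cells (105 CPM) and 0 in 225 WT cells, which allows up to 1.33% of WT cells with a UMI (3 counts of 225 cells), and was at least 65.5-fold higher against a floor of 3 counts over the WT Nxph4 cells. Free RNA held 116 CPM of Shh in the ShhN library, so a UMI in a cell does not show that the cell made it. Of the 13 cells, 11 were remaining cells, 2 belonged to the Hs3st4 subset and 0 to the subset with Cajal-Retzius genes. Several targets of the pathway were at 0 in Nxph4 cells. Gli1, Hhip and Nkx2-2, which SHH signalling switches on, had 0 UMIs in Nxph4 cells of both libraries. Ptch1, the receptor and target, had 11 UMIs in ShhN and 12 in WT Nxph4 cells (9.19 and 6.43 CPM), against 34.1 and 5.36 CPM over all cells. Of the listed targets 3 had enough UMIs, and 0 passed, where 0.226% of all 6644 genes were higher and 0.436% lower. Ccnd2, a cyclin gene, was at 123 CPM in ShhN and 86.3 CPM in WT Nxph4 cells (log2 ratio 0.51 [0.18, 0.84]), Mycn, a growth-promoting transcription factor gene, at 108 and 98.1 CPM, and Bcl2, a survival gene, at 84.4 and 71.3 CPM. In layer 6 cells 4 listed targets had enough UMIs and Ccnd2 passed as higher in ShhN, where 0.127% of all 6321 genes did.

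Genes that act in cell division followed. Cenpa, a centromere histone, had 45 UMIs in ShhN and 7 in WT Nxph4 cells (37.6 and 3.75 CPM, log2 ratio 3.33 [2.17, 4.72]). Ube2c, a ubiquitin enzyme of mitosis, was at 49.3 and 6.43 CPM (2.94 [2.03, 3.97]), and Hmgb2, a chromatin protein of dividing cells, at 137 and 34.3 CPM (2.0 [1.57, 2.44]). Cenpf, Cdk6, Pttg1 and Cks2 passed as well. Of the 12 genes on the cell division list 5 had enough UMIs, and Cenpf and Ube2c were higher, where 0.226% of all 6644 genes were. These UMIs sat in few cells: the 59 ShhN Ube2c UMIs came from 14 cells and the 45 Cenpa UMIs from 13. Mki67 or Top2a, markers of cycling cells, were found in 9.15% of ShhN and 5.33% of WT Nxph4 cells, against 16.6% and 5.43% of all cells. Free RNA differed in the same direction, with Ube2c at 159 CPM in the ShhN and 34.2 CPM in the WT library and Hmgb2 at 494 and 153 CPM. With free RNA subtracted at an assumed 5% of UMIs, all 24 named genes kept direction and side of the rule. The actual part of free RNA in the result was not tested. Without the cells that held Mki67 or Top2a, 9 genes were higher. In the whole cell division list, the summed level was 290 CPM in ShhN and 107 CPM in WT Nxph4 cells, against 768 and 222 CPM in free RNA.

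Genes of other functions passed too. Ppp1r1b, the dopamine-regulated phosphatase inhibitor DARPP-32, was at 95.3 CPM in ShhN and 37.5 CPM in WT Nxph4 cells (1.34 [0.90, 1.79]), and at 248 and 90.5 CPM in the Hs3st4 subset. Syt6, a synaptotagmin of layer 6 cells, was at 48.5 and 17.1 CPM (1.5 [0.85, 2.17]), while layer 6 cells had 78.0 and 71.5 CPM. Pdzrn3, a ubiquitin ligase gene, was at 63.5 and 18.8 CPM (1.76 [1.16, 2.38]) and S100a10 at 56.8 and 22.0 CPM (1.37 [0.79, 1.97]). Of the 3 subsets, the Hs3st4 subset had the highest level of Syt6 and of Ppp1r1b in both libraries, and it made up 26.8% of ShhN and 18.2% of WT Nxph4 cells. The part of that share in the result was not tested.

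Axon guidance genes were among the lower ones. Nrp2, a semaphorin receptor gene, had 10 UMIs in 7 ShhN Nxph4 cells and 90 UMIs in 40 WT Nxph4 cells (8.36 and 48.2 CPM, log2 ratio -2.53 [-3.64, -1.58]). It was lower in layer 6 cells as well, at 7.49 and 35.1 CPM, and in free RNA, at 10.9 and 47.5 CPM. Epha4, an ephrin receptor gene, was at 103 and 225 CPM (-1.13 [-1.43, -0.84]) and Sema3c, a secreted guidance protein, at 39.3 and 95.4 CPM (-1.28 [-1.78, -0.81]). In layer 6 cells Epha4 was at 113 and 109 CPM and Sema3c at 18.7 and 21.9 CPM. Of 23 guidance genes with enough UMIs these 3 were lower and 0 higher, where 0.436% of all 6644 genes were lower. Their median log2 ratio was -0.32, beside -0.07 over all genes tested. The whole guidance list was lower in ShhN outside Nxph4 cells too. It summed to 2457 CPM in ShhN and 3181 CPM in WT Nxph4 cells, and to 2397 and 3116 CPM over all cells. In layer 6 cells it was at 2331 and 2546 CPM, and in free RNA at 1889 and 2426 CPM.

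Zbtb20, a zinc finger repressor, fell to 280 CPM in ShhN Nxph4 cells, against 832 CPM in WT Nxph4 cells (-1.57 [-1.75, -1.40]). Among the remaining cells it was at 287 and 998 CPM (-1.80 [-2.02, -1.59]), in the subset with Cajal-Retzius genes at 572 and 977 CPM (-0.77 [-1.10, -0.45]), in the Hs3st4 subset at 97.3 and 120 CPM (-0.30 [-1.04, 0.42]) and in layer 6 cells at 170 and 270 CPM (-0.66 [-0.89, -0.44]). Zbtb20 thus passed the size rule in the remaining cells but not in the other 2 subsets. Emx2 was at 59.3 CPM in ShhN and 146 CPM in WT Nxph4 cells (-1.30 [-1.70, -0.92]). Within the subset with Cajal-Retzius genes Emx2 was at 360 and 456 CPM (-0.34 [-0.78, 0.08]), and within the remaining cells at 13.7 and 65.2 CPM (-2.25 [-3.37, -1.29]).

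Gabra2, a GABA receptor subunit gene, was at 68.5 CPM in ShhN and 168 CPM in WT Nxph4 cells (-1.30 [-1.67, -0.94]), Neurod1 at 86.9 and 189 CPM (-1.12 [-1.45, -0.80]) and Mfap4, an extracellular matrix gene, at 27.6 and 86.8 CPM (-1.65 [-2.24, -1.11]). All 3 passed in the remaining cells too, where Gabra2 was at 61.7 and 206 CPM. In the Hs3st4 subset Gabra2 was at 36.9 and 29.2 CPM (0.34 [-1.04, 1.73]). Btbd17, Ninj1, Tmem158 and Mtss1l completed the 12 lowest, with log2 ratios between -2.01 and -1.11. Of the 8 Cajal-Retzius genes, Lhx1 was lower and 0 higher, where 0.436% of all 6644 genes were lower. Their median was -0.69, beside a share of 10.5% of ShhN and 18.2% of WT Nxph4 cells in the subset that expresses them.

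**Figure D5:**
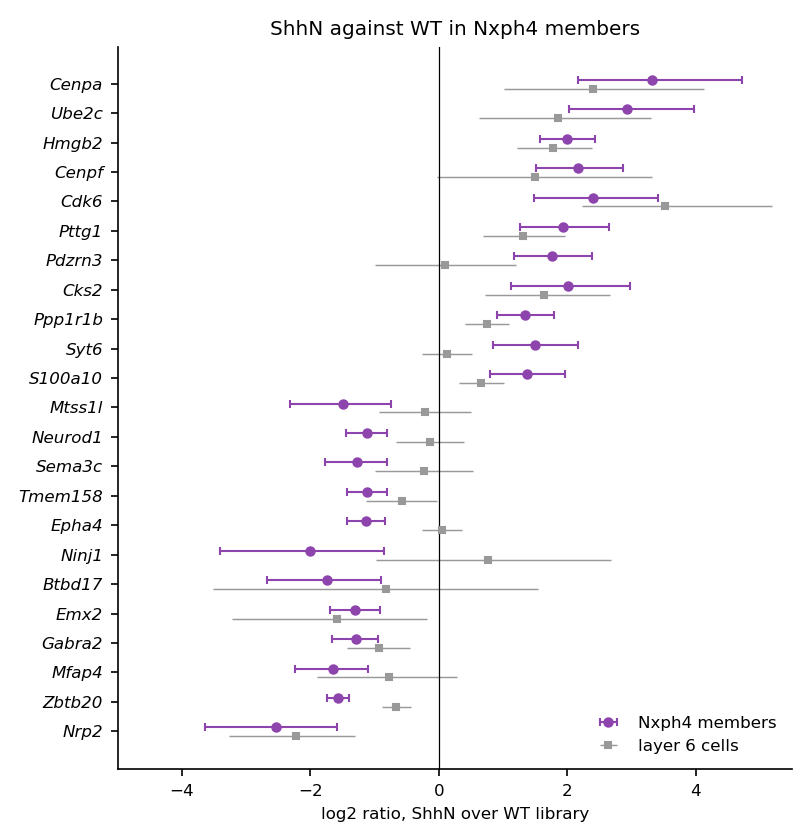
Log2 ratio of the ShhN over the WT library (x axis) in Nxph4 cells (purple circles) and layer 6 cells (grey squares) for the named genes other than Shh (y axis); lines are exact 95% intervals of counting error. In Nxph4 cells the named ratios ran from 3.33 for Cenpa to -2.53 for Nrp2, and in layer 6 cells Epha4 lay at 0.05.

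Split by subset, few genes passed within the Hs3st4 subset. Of 2126 genes, 3 were higher (0.141%) and 7 lower (0.329%) in ShhN than in WT cells. Fabp7, a fatty acid binding protein of radial glia, was at 195 CPM in ShhN and 38.0 CPM in WT cells of the subset (2.36 [1.47, 3.35]), with its 58 ShhN UMIs in 19.5% of the cells and its 13 WT UMIs in 22.0%. Ppp1r1b (1.46 [0.83, 2.11]) and Rorb (1.31 [0.51, 2.15]) were the other 2. Syt4, a synaptotagmin gene, was at 77.2 and 222 CPM (-1.52 [-2.26, -0.83]), and the activity-induced genes Egr1 and Ier2 had log2 ratios of -1.64 [-2.61, -0.76] and -1.16 [-1.79, -0.57]. In layer 6 cells Egr1 had a log2 ratio of -0.73 and Ier2 of -0.77. Over all Nxph4 cells 8 of the 10 immediate early genes had enough UMIs, 0 passed, and their median was -0.84, beside -0.07 over all genes tested. In layer 6 cells Fosb and Npas4 were lower among 9 with enough UMIs, where 0.0949% of all 6321 genes were, with a median of -0.73 beside -0.05. In the subset with Cajal-Retzius genes 2 of 2180 genes were higher (0.0917%) and 3 lower (0.138%), and in the remaining cells 12 of 4879 were higher (0.246%) and 17 lower (0.348%).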

How the data were processed

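The deposited files hold UMI counts per gene and barcode with no normalization, per the file headers, in 1 matrix of 27998 genes and 737280 barcodes per group. File prefixes call the groups control and experiment, and the titles call them WT and ShhN. The mm10 build and the tools Seurat 3, StringTie and Cell Ranger are listed in the submitters' processing notes, without the step each served.

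UMIs were summed over the cells of a group and scaled to CPM here. Shares have exact Clopper-Pearson intervals, and ratios have exact intervals from the binomial law given both counts, at 95%. PCR copies are collapsed by UMIs. Ratios with both counts at or under 3 were not given. Named genes are the 12 highest and 12 lowest past the size rule between ShhN and WT and the 15 highest and 15 lowest against layer 6 cells, without globins, mitochondrial, Xist, Y-linked, unnamed and rule genes, plus genes of 27 lists. Genes of subsets and lists were also named. The members and lists were chosen with earlier results of these data known. Doublets were called with scanpy 1.11.5 at an expected 6% and kept. TMM factors came from edgeR 4.0.16, and other values from Python 3.11.15 with scipy 1.17.1. Alternatives covered cell and member rules, depth, scaling, free RNA and count minimums. Total UMIs were 69470062 in the ShhN and 63760199 in the WT library, of which 87.5% and 78.7% were in cells.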

Additional observations from a re-analysis of the deposited data

Results flagged for a closer look

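Barcodes with 1 to 50 UMIs, which are not counted as cells, held 138 Shh UMIs in the ShhN library and 0 in the WT library. In the ShhN library this was 116 CPM, beside 105 CPM in Nxph4 cells and 104 CPM over all cells. It stood out as a signal outside the measured cells and above the WT library.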

How the results depend on the processing

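No paired analysis was possible because each group was deposited as 1 pooled library, and no sample could be left out in turn. Counts are given as higher and lower genes, for ShhN over WT and then for Nxph4 over layer 6 cells, where they moved by over 1.5 times, and the cause was not tested. With Nxph4 of at least 2 UMIs the log2 ratio of shares was -1.23 and the ShhN over WT counts were 6 and 6. With both Tbr1 and Nr4a2 required they were 1 and 8, and 6 and 3. With cells thinned to 4500 UMIs first they were 1 and 10, and 29 higher. A minimum of 20 UMIs gave 39 higher, and 105 higher, and in layer 6 cells 18 and 14. No minimum gave 62 and 58, and 153 higher. A minimum of 200 UMIs, which tests fewer genes, gave 2 and 10, and 10 and 8. Lower against layer 6 cells were 37 without doublets, 31 with mitochondrial UMIs at most 5%, 36 with TMM and 133 with Hs3st4-free members. Without doublets 2 genes were higher in ShhN layer 6 cells, and with equal weight per cell 49 were lower in ShhN Nxph4 cells. The next alternatives were chosen after seeing the data. Without Cajal-Retzius members 19 and 8 differed from layer 6 cells. The Hs3st4 subset alone gave a share ratio of -0.20, 3 and 7, and 10 and 1. Without Mki67 or Top2a cells 9 were higher in ShhN. In all other settings the share ratio lay between -0.90 and -0.63.

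Against layer 6 cells 16 values of named genes turned sign, given here on the log2 scale. With both Tbr1 and Nr4a2 required, Rbms1 was at -0.10 and B3gat1 at 0.051 in ShhN, and Nrgn at 0.38 in WT. Without Cajal-Retzius members Reln was at -0.94 in ShhN and -0.023 in WT, and Zic1 at -1.68 and Tmem163 at -0.21 in ShhN. In the Hs3st4 subset Reln was at -0.16 in ShhN and -0.77 in WT, Nr2f2 at -0.74 and -1.18, Nrgn at 0.021 and Igfbp3 at 0.075 in ShhN, and Emx2 at -0.36, Calb2 at -2.90 and Egr1 at 0.57 in WT. Gabra2, ShhN over WT, was at 0.34 there. Over all settings 265 named values for ShhN over WT kept direction and side of the rule and 101 kept direction alone. Against layer 6 cells these were 691 and 234. These totals include the lower minimum and no minimum of UMIs, which could not change a call already made. For ShhN over WT, 1 value kept both and 19 direction alone with Nxph4 of at least 2 UMIs. With both Tbr1 and Nr4a2 required these were 1 and 21, and with thinning to 4500 UMIs 7 and 17. Against layer 6 cells they were 37 and 23, 10 and 43, and 25 and 35, in that order. In the Hs3st4 subset alone, 4 values against layer 6 cells kept both and 39 direction alone. For ShhN over WT these were 1 and 12 there. Without Cajal-Retzius members they were 21 and 28 against layer 6 cells, and 21 and 3 for ShhN over WT. Values without a ratio in a setting are not in these counts or in the totals. With TMM scaling all 24 kept both, and against layer 6 cells all 60.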
